A study of Mus musculus with 6 samples.

Results

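The endothelin and nitric oxide-cGMP genes examined here are 10 mouse genes chosen by symbol: the ligand Edn1, its processing enzyme Ece1, the receptors Ednra and Ednrb, the nitric oxide synthases Nos1, Nos2 and Nos3, the soluble guanylate cyclase subunits Gucy1a3 and Gucy1b3, and the cGMP-dependent kinase Prkg1. Of these, 8 had a row among the 19730 rows of the RNA-Seq table, and Nos2 and Gucy1a3 were not analysed here. The RNA came from primary cultures of mouse mesangium, whose contractile cells support the capillaries of the glomerulus. All cells, between passage 3 and passage 6, received medium of high glucose (25.5 mM) plus 20% foetal bovine serum. The 3 TGF-β1 libraries came from cells given transforming growth factor beta 1 at 10 ng/ml for 72 h, and the 3 Control libraries from cells labelled Control, for which no vehicle is described. The comparison asks which genes respond to TGF-β1, and since separate cultures are not stated, p-values measure only the spread between these libraries, which may be technical.

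Endothelin 1 is made as a larger precursor that the endothelin converting enzyme cleaves to the active peptide, which then constricts vessels and mesangial cells through receptors coupled mainly to Gq. Nitric oxide, formed from arginine by the nitric oxide synthases, acts in the opposite sense: it binds the heme of soluble guanylate cyclase, a dimer of an alpha and a beta subunit, and the cGMP that is formed activates cGMP-dependent protein kinase until phosphodiesterases degrade it. In the glomerulus both pathways are known for their influence on mesangial tone and matrix.

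The sequence upstream of the transcription start is shown for the 2 members that passed the test and for the ligand, which did not, so that their starts can be compared. The sequences are the 250 bases before the start in RefSeq (build GRCm38.p6), written 5′ to 3′ on the strand of the gene. Capitals mark 2 of the motifs searched on both strands, the SMAD-binding element CAGAC, which reads as GTCTG on the other strand, and the CCAAT box, which there reads as ATTGG. No 2 matches of different motifs overlapped in these windows. Ednra lies at chr8:77724453-77724702 (minus strand), Gucy1b3 (Gucy1b1 in RefSeq) at chr3:82074712-82074961 (minus strand) and Edn1 at chr13:42301226-42301475 (plus strand).
Ednra: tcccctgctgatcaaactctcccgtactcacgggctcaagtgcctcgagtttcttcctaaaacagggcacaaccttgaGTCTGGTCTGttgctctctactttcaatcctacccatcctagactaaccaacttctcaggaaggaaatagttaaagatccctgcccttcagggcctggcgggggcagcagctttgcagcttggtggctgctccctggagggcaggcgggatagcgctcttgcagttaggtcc
Gucy1b3: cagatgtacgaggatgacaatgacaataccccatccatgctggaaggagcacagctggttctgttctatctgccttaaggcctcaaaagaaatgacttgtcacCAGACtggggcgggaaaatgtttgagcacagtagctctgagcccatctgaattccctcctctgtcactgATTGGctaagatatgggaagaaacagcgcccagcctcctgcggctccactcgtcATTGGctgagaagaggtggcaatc
Edn1: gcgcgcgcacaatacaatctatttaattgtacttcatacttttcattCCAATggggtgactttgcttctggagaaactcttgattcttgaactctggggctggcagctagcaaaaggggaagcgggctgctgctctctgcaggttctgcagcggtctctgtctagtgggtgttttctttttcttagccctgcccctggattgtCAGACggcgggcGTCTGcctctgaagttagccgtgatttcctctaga
The Ednra window held 2 CAGAC matches and 0 CCAAT matches, the Gucy1b3 window 1 and 2, and the Edn1 window 2 and 1. Over the 13 windows found for 8 members, which include several starts for Ece1, Gucy1a3 and Prkg1, CAGAC was present in 8, against 42.2% of all 32851 RefSeq windows of this length, and CCAAT in 6, against 33.8%. The windows are not independent, since Ece1 windows 1 and 2 overlap and share their CCAAT matches. The CAGAC windows include those of Gucy1a3, whose expression was not analysed here. The AP-1 motif TGANTCA, the third motif searched, was in 0 of the 13 windows, against 6.75% of all windows. A match is a description of letters only. Nos2 and Nos3 had no entry.

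Expression was given as FPKM, fragments per kilobase of transcript and per M (mega) mapped fragments. Depth, recovered from the steps between the lowest FPKM values, was 10.1 to 11.1 M fragments per library, and 99.7% of 4220 low values lay within 0.1 of a whole number of fragments. Pearson's r of log2(FPKM + 1) ranged from 0.876 to 0.940 for libraries of the same group and from 0.818 to 0.853 for libraries of different groups (across rows, which are not independent). The replicate 2 libraries of both groups deviated together from their group means (correlation across rows 0.23, against 0.092 and 0.085 for the replicate 1 and replicate 3 libraries), so results are also given from replicates 1 and 3 alone where these end a call. Of 11898 rows with a mean of at least 1 FPKM, limma called 48.1% changed at an adjusted p under 0.05 (24.5% higher and 23.6% lower with TGF-β1), with a median log2 change of -0.017. When libraries were instead scaled to the sum of protein-coding rows (transcripts of 300 nt or longer), 2015 rows rose and 3927 fell, in place of 2911 and 2810, and the median was -0.19. This scaling was chosen after seeing the data.

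The labelled cell type was compared with marker lists. Of 10 mesangial markers, 6 had a mean of at least 1 FPKM, with Acta2 at 997 ± 89.7 FPKM without and 3887 ± 348 FPKM with the treatment (SD, n = 3), while Itga8 was at most 0.174, Thy1 at most 0.180 and Des at most 0.550 in any library. The summed mesangial list was 3249 to 3755 FPKM in Control and 7960 to 8287 with TGF-β1, a sum carried by Acta2, Vim and Cald1. Pdgfrb, the platelet-derived growth factor receptor of mesangial cells and pericytes, fell from 37.5 ± 4.82 to 29.2 ± 0.751 FPKM (log2 change -0.34, adjusted p = 0.0396, limma). Without the filter its adjusted p was 0.0531 (limma), which is not a call. Cspg4, of the same list, rose from 0.0735 ± 0.0367 to 1.21 ± 0.257 FPKM (adjusted p = 0.000951, limma without the filter). Endothelium is a usual source of Edn1, Nos3 and Ednrb. The 9 endothelial markers with a row, of 10, summed to 5.43 to 7.13 FPKM in Control and 3.84 to 5.42 with TGF-β1, mostly Egfl7, and the defining markers Cdh5 and Kdr were at 0 in Control and at most 0.0244 with TGF-β1. Flt1 rose from 0.357 ± 0.0504 to 0.637 ± 0.0691 FPKM (adjusted p = 0.0296, limma without the filter). Vwf fell from 0.465 ± 0.0723 to 0.222 ± 0.0922 FPKM (adjusted p = 0.0498, limma without the filter). The 7 macrophage markers with a row, of 10, summed to 87.0 to 114 FPKM in Control and 9.03 to 11.4 with TGF-β1. The fall lay in Cd14 and Csf1r. Cd68 was at 2.79 ± 0.836 and 2.22 ± 0.448 FPKM and was not called (adjusted p = 0.393, limma). Ptprc and Laptm5 were at 0 in Control and at most 0.0448 and 0.0919 FPKM with TGF-β1. Itgam was at most 0.359 and Lyz2 at most 0.0811 FPKM in any library. The 9 epithelial markers with a row, of 10, summed to 46.2 to 49.2 FPKM in Control and 11.9 to 13.4 with TGF-β1, the fall lying in Cldn2 (32.5 ± 0.831 to 0.579 ± 0.0251 FPKM), Synpo and Podxl, while Cdh1 was at most 0.123. The keratins of this list went the other way, Krt18 from 0.279 ± 0.120 to 1.57 ± 0.219 FPKM and Krt19 from 0.156 ± 0.150 to 1.06 ± 0.233 FPKM (adjusted p = 0.00143 and 0.00563, limma without the filter). The part of these markers in the results below was not tested.

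Among the members, TGF-β1 treatment was accompanied by downregulation of the endothelin receptor Ednra and upregulation of the guanylate cyclase subunit Gucy1b3, whereas the ligand Edn1 and its converting enzyme Ece1 did not pass the test. The paper counted a gene as expressed from 3 FPKM upwards. Ednra (at most 0.813 FPKM) and Gucy1b3 (at most 1.60 FPKM) lay below this in every library of both groups. Only Edn1 and Ece1 had a mean of at least 1 FPKM, and 0 of these 2 were called by limma (unadjusted p = 0.145 for Edn1 and 0.2 for Ece1). The other 6 members were read from the same fit over all 19730 rows, which called 30.5% of rows (14.6% higher and 16.0% lower). Here 1 member was called higher and 1 lower, 2 of 8 in all. The Control and TGF-β1 values did not overlap in the same 2 members, and this was so for 44.1% of all rows. Both shares of the members are therefore close to or below those of the table as a whole. In a bulk sample, fewer cells of a type and less RNA per cell cannot be told apart.

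**Figure D1:**
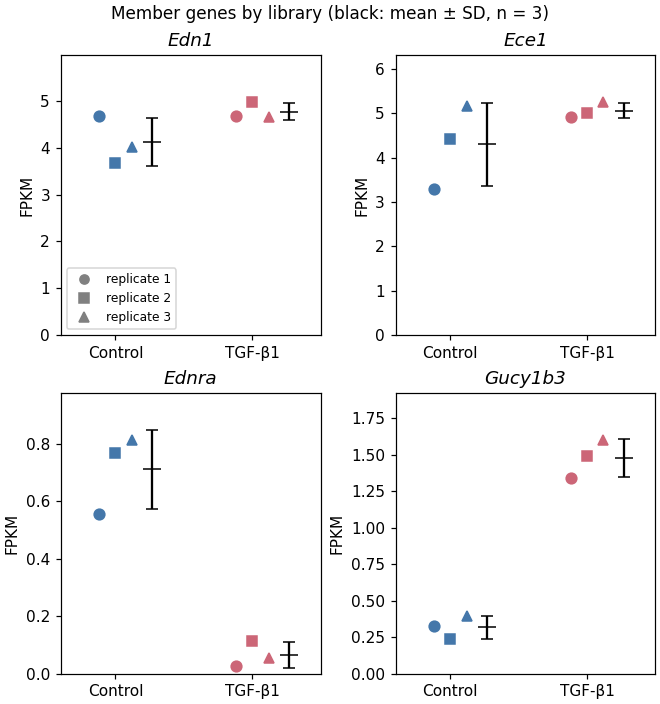
FPKM (vertical axes, linear from 0) of Edn1, Ece1, Ednra and Gucy1b3 in each Control and TGF-β1 library, with symbols for the replicate number and black bars for the mean ± SD (n = 3). Edn1 and Ece1 overlap between the groups, Ednra lies at or below 0.115 in all TGF-β1 libraries, and Gucy1b3 lies at or above 1.34.

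Edn1 encodes the precursor of endothelin 1 and lies on chromosome 13 (mm9, 42396639 to 42403358, plus strand), with a single annotated transcript. Its level was 4.68, 3.67 and 4.02 FPKM in Control replicates 1 to 3 and 4.68, 4.98 and 4.65 FPKM in TGF-β1 replicates 1 to 3, which corresponds to 111, 87 and 93 fragments and to 110, 108 and 108 fragments. The groups overlapped, because Control replicate 1 lay within the range of the treated libraries. The mean was 4.12 ± 0.510 FPKM in Control and 4.77 ± 0.181 with TGF-β1, a log2 change of 0.17 (SE 0.11; adjusted p = 0.215, limma), with a 95% interval from -0.079 to 0.43. An exact permutation test gave p = 0.3.

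Ece1, the membrane metalloprotease that cleaves the endothelin precursor (chromosome 4, mm9, 137418152 to 137521144, plus strand), was measured at 3.30, 4.42 and 5.17 FPKM in Control and at 4.92, 5.0 and 5.26 FPKM with TGF-β1. Control replicate 3 lay within the range of the treated libraries. The log2 change of 0.21 (SE 0.15) had an adjusted p of 0.281 (limma) and a 95% interval from -0.14 to 0.56, so a rise or a small fall could not be distinguished. Ece1 overlaps other annotated genes on the opposite strand, of which AL807764.1, a miscellaneous RNA, had 2.03 to 10.5 FPKM, and whether the FPKM estimate used strand is not stated.

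Ednra, the endothelin A receptor that mediates constriction and growth responses, lies on chromosome 8 (mm9, 80186930 to 80248363, minus strand). It was measured at 0.555, 0.767 and 0.813 FPKM without treatment and at 0.0266, 0.115 and 0.0540 FPKM in the TGF-β1 libraries. These values equal 21, 29 and 30 fragments against 1, 4 and 2. Every treated library was below every Control library. The mean fell from 0.711 ± 0.137 to 0.0653 ± 0.0454 FPKM (SD over 3 libraries), a log2 change of -0.68 on the log2(FPKM + 1) scale, where the added 1 shrinks differences of low genes (SE 0.080; adjusted p = 0.00176, limma without the filter). The exact permutation p was 0.1, the smallest that 3 against 3 libraries allows. Summed over libraries, 80 Control fragments faced 7 TGF-β1 fragments, a Control level 11.1 times as high at equal depth (exact 95% interval 5.14 to 28.5, which covers counting error only, since amplified reads are not independent molecules). The call held in 15 of 15 alternatives, with adjusted p from 0.00174 to 0.0401 (limma), the highest being that of replicates 1 and 3 alone, and a log2 change from -2.32 (pseudocount 0.1) to -0.64. The lincRNA 4933431K23Rik on the opposite strand overlaps Ednra and was at most 0.117 FPKM in any library.

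Ednrb, the endothelin B receptor (chromosome 14, mm9, 104213842 to 104243390, minus strand), which clears endothelin and stimulates nitric oxide formation in endothelium, was listed at 0 in 5 of 6 libraries and at 0.108 FPKM in TGF-β1 replicate 1. A count of 0 allows up to 3 fragments, or 0.0735 to 0.0807 FPKM depending on the library. At this depth a difference was not detectable (adjusted p = 0.512, limma). The ratio of Ednra to Ednrb was not computed because of the zeros. The sum of both receptors was 0.555, 0.767 and 0.813 FPKM in Control and 0.134, 0.115 and 0.0540 FPKM with TGF-β1, without overlap of the groups and with a log2 change of -0.63 (exact permutation p = 0.1, the smallest possible). In 5 of 6 libraries this sum is Ednra alone, so it largely repeats the result of Ednra.

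**Figure D2:**
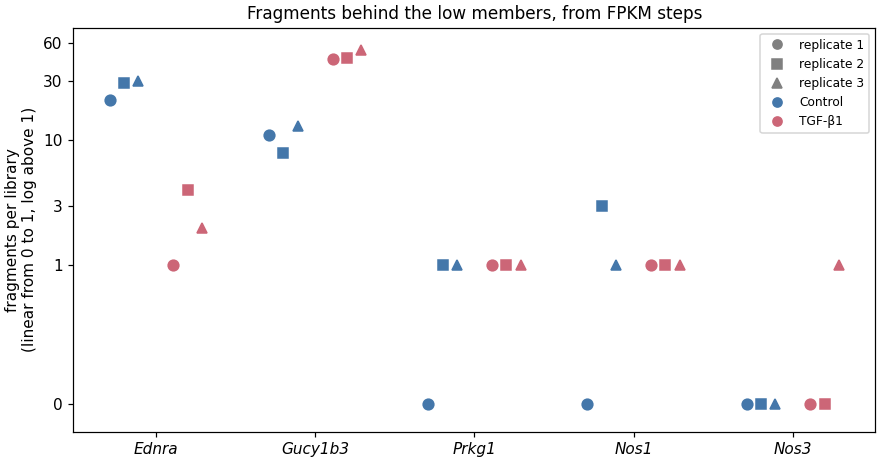
Fragments per library (vertical axis, linear from 0 to 1 and logarithmic above 1) behind the FPKM of Ednra, Gucy1b3, Prkg1, Nos1 and Nos3, with blue points for Control, red points for TGF-β1 and symbols for the replicate number. For Nos1 the points are steps of the lowest value. Ednra falls from 21 to 30 fragments in Control to between 1 and 4, Gucy1b3 rises from 8 to 13 to between 45 and 53, and the others stay at 3 or fewer.

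The nitric oxide synthases with a row were at the limit of detection. Nos1, the neuronal isoform (chromosome 5, mm9, 118231041 to 118408849, plus strand), was at 0, 0.0399 and 0.0136 FPKM in Control and at 0.0134, 0.0145 and 0.0135 FPKM with TGF-β1. These values are 0, 3 and 1 against 1, 1 and 1 steps of the lowest value. The step is what 1 fragment would give over about 6.8 kb, whereas the transcript named in the row has 697 nt, so the row may hold the value of the gene rather than of that transcript. Nos3, the endothelial isoform (chromosome 5, mm9, 23870628 to 23890292, plus strand), was listed at 0 in 5 libraries and at 0.0235 FPKM, 1 fragment, in TGF-β1 replicate 3. Neither gene passed the test (adjusted p = 0.923 for Nos1 and 0.815 for Nos3, limma), and counts this low would not show a change of moderate size. Atg9b, which overlaps Nos3 on the opposite strand, had 0.720 to 2.73 FPKM.

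Gucy1b3 encodes the beta subunit of soluble guanylate cyclase, the heme-binding part of the nitric oxide receptor, and lies on chromosome 3 (mm9, 81835926 to 81878633, minus strand) with a single annotated transcript and no overlapping gene. It was measured at 0.326, 0.237 and 0.395 FPKM in Control and at 1.34, 1.49 and 1.60 FPKM with TGF-β1, which equals 11, 8 and 13 fragments against 45, 46 and 53. All treated libraries were above all Control libraries. The mean rose from 0.320 ± 0.0791 to 1.48 ± 0.130 FPKM (SD over 3 libraries), a log2 change of 0.91 on the log2(FPKM + 1) scale (SE 0.090; adjusted p = 0.000907, limma without the filter). The exact permutation p was again 0.1. In fragments, 144 against 32 gave a TGF-β1 level 4.64 times that of Control (exact 95% interval 3.15 to 7.04, counting error only). The call held in 15 of 15 alternatives, with adjusted p from 0.000559 to 0.026 (limma) and a log2 change from 0.83 to 1.93 (pseudocount 0.1). The ratio and sum with its partner Gucy1a3 could not be given.

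Prkg1, the type I cGMP-dependent kinase that relaxes smooth muscle (chromosome 19, mm9, 30643728 to 31839312, minus strand), was at 0, 0.0498 and 0.0510 FPKM in Control and at 0.0502, 0.0544 and 0.0508 FPKM with TGF-β1. Each value above 0 was 1 fragment, and no change was detectable (adjusted p = 0.647, limma). Cstf2t, which lies within Prkg1 on the opposite strand, had 5.96 to 8.96 FPKM.

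Because FPKM is per length, levels can be ordered within each group. In Control the order of mean FPKM was Ece1 (4.30), Edn1 (4.12), Ednra (0.711), Gucy1b3 (0.320), Prkg1 (0.0336) and Nos1 (0.0178), with Ednrb and Nos3 listed at 0. With TGF-β1 it was Ece1 (5.06), Edn1 (4.77), Gucy1b3 (1.48), Ednra (0.0653), Prkg1 (0.0518), Ednrb (0.0359), Nos1 (0.0138) and Nos3 (0.00783). Ece1 and Edn1 overlapped in both groups, as did Prkg1 and Nos1 in Control and every neighbouring pair from Ednra downwards with TGF-β1. Ednra was above Gucy1b3 in every Control library and below it in every TGF-β1 library.

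The genes whose pattern over the 6 libraries was most like that of Gucy1b3, among 1840 rows with a group difference of at least 1 on the log2 scale, were Tor1aip2, Jag1 and Msc, with Pearson's r of log2(FPKM + 1) of 0.9985, 0.9982 and 0.998. Jag1, a Notch ligand, was at 7.0, 5.40 and 8.84 FPKM in Control and at 49.0, 56.7 and 56.6 FPKM with TGF-β1. For Ednra they were Hoxd3, Slc25a23 and Asb13, with r of 0.999, 0.9979 and 0.9972. Hoxd3, a homeobox factor, was at 5.59, 8.04 and 8.57 FPKM in Control and at 1.36, 1.84 and 1.69 FPKM with TGF-β1. These points share the same libraries and the same group difference, which by itself makes r high.

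Beyond the members, 85 other genes of the 2 pathways were followed in 6 lists, of which 78 had a row and 46 had a mean of at least 1 FPKM. Of these 46, 11 were higher and 11 lower with TGF-β1, 22 in all, and 24 did not pass the test. The called share of 47.8% is that of the table as a whole, where 48.1% of tested rows were called. Their median log2 change was -0.086, beside -0.017 over all tested rows. The largest changes lay in the cGMP kinase, arginine and phosphodiesterase genes.

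**Figure D3:**
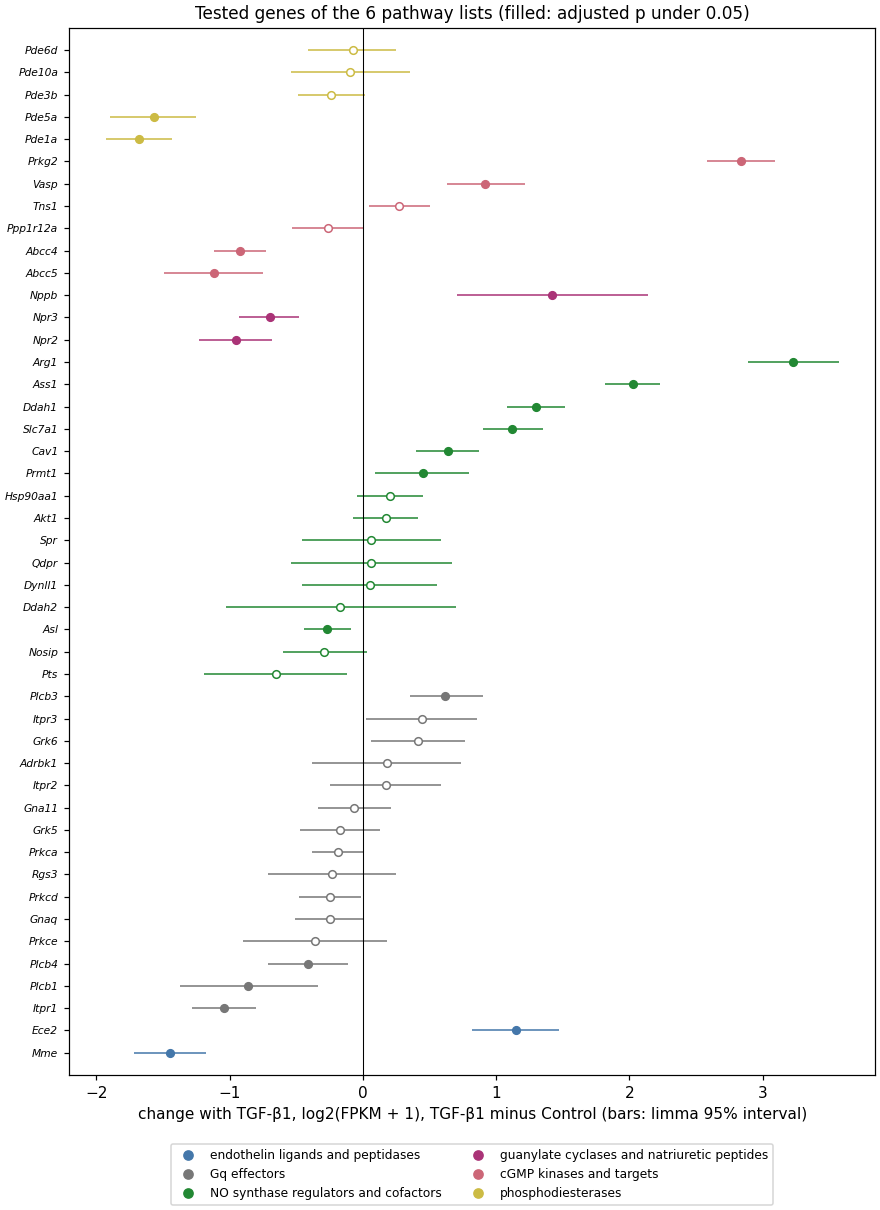
Change with TGF-β1 (horizontal axis, log2(FPKM + 1), TGF-β1 minus Control, with limma 95% intervals) of the 46 tested genes of the 6 lists, coloured by list, with filled points for an adjusted p under 0.05. The rightmost point is Arg1 at 3.23 and the leftmost is Pde1a at -1.68, and 24 open points did not pass.

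Of the endothelin ligands and peptidases, 2 of 5 genes with a row were tested and both were called, where 48.1% of all tested rows were. Ece2, a second converting enzyme, rose from 5.88, 6.47 and 4.63 FPKM to 12.1, 14.4 and 14.6 FPKM (log2 change 1.15, SE 0.14; adjusted p = 0.000943, limma). Mme, the neprilysin that degrades endothelin and natriuretic peptides, fell from 3.14, 3.05 and 2.76 FPKM to 0.418, 0.424 and 0.529 FPKM (log2 change -1.45, SE 0.11; adjusted p = 0.000186, limma). The groups overlapped for neither gene. The ligand Edn3 was at 0.0349 FPKM or below in every library.

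The list of Gq effectors holds genes through which endothelin receptors raise calcium. It also holds protein kinase C genes and genes that curb receptor signals, such as Rgs3 and Grk5. Of its 18 genes with a row, 15 were tested, 1 was higher and 3 lower, and the median log2 change was -0.19. Count and median cover these unlike parts together and do not describe the calcium branch alone. The called share was 26.7%, beside 48.1% of all tested rows. The phospholipase Plcb3 rose from 9.69 ± 1.22 to 15.4 ± 1.19 FPKM (log2 change 0.62, adjusted p = 0.00546, limma). The inositol trisphosphate receptor Itpr1 fell from 10.4 ± 0.731 to 4.55 ± 0.421 FPKM (log2 change -1.04, adjusted p = 0.000369, limma). The phospholipases Plcb1 (2.03 ± 0.620 to 0.664 ± 0.293 FPKM) and Plcb4 (12.7 ± 1.62 to 9.26 ± 0.986 FPKM) were lower, at adjusted p of 0.0174 and 0.0338 (limma). Their calls did not outlast single libraries: adjusted p for Plcb1 was 0.0548, 0.0538 and 0.0546 without Control replicate 1, Control replicate 2 or TGF-β1 replicate 1, and for Plcb4 0.0933, 0.102, 0.0723 and 0.103 without Control replicate 1, Control replicate 2, TGF-β1 replicate 1 or TGF-β1 replicate 3 (limma). Within replicates 1 and 3 they were 0.11 and 0.114 (limma). In place of 4 called genes, the list had 7 without TGF-β1 replicate 2, 7 with replicate 2 as a batch term, 7 when scaled to protein-coding rows, 2 without TGF-β1 replicate 1 and 2 within replicates 1 and 3.

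Below the filter, the remaining 3 genes of this list, the regulators of G protein signalling Rgs2, Rgs4 and Rgs5, were all called in the fit over all rows. That fit called 6 of the 18 genes with a row, where 30.5% of all rows were called. Plcb4 was not called in it (adjusted p = 0.0544, limma). Rgs4, which shortens Gq signals, fell from 1.60, 1.22 and 1.62 FPKM to 0.166, 0.180 and 0.156 FPKM (log2 change -1.08, adjusted p = 0.000537, limma). Rgs2 was at 1.48 ± 0.475 and 0.409 ± 0.307 FPKM and Rgs5 at 0.0864 ± 0.0503 and 0.250 ± 0.0353 FPKM. They passed at adjusted p of 0.0349 and 0.0336 (limma). Rgs2 lost its call without any 1 of the 6 libraries (adjusted p 0.051 to 0.118, limma), and Rgs5 lost it without Control replicate 1, Control replicate 2, TGF-β1 replicate 2 or TGF-β1 replicate 3 (0.0648, 0.0743, 0.072 and 0.0761, limma). Neither passed within replicates 1 and 3 (adjusted p 0.115 and 0.164, limma). These 3 genes were named after their values were seen.

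Of the regulators and cofactors of the nitric oxide synthases, 15 of 21 genes with a row were tested, 6 were higher and 1 lower, and the median log2 change was 0.17. The called share of 46.7% was close to the 48.1% of all tested rows. The genes that handle arginine, the substrate of the synthases, held the largest rises. Arg1, the arginase that splits arginine to ornithine and urea, rose from 1.76, 1.56 and 1.02 FPKM to 20.1, 23.2 and 22.2 FPKM, 15.1-fold between the means (log2 change 3.23, SE 0.14; adjusted p = 2.36e-05, limma). Ass1, which forms argininosuccinate on the way from citrulline back to arginine, rose from 56.1, 59.4 and 59.9 FPKM to 244, 258 and 222 FPKM (log2 change 2.03, SE 0.085; adjusted p = 2.15e-05, limma). The groups were far apart in both genes. Slc7a1, the main cationic amino acid carrier, rose from 5.62 ± 0.240 to 13.4 ± 1.25 FPKM (log2 change 1.12). Asl, which releases arginine from argininosuccinate, went the other way, from 29.6 ± 1.28 to 24.5 ± 0.973 FPKM (log2 change -0.27, adjusted p = 0.0258, limma), and lost its call without Control replicate 1, Control replicate 2, TGF-β1 replicate 1 or TGF-β1 replicate 2 (0.0539, 0.0771, 0.0846 and 0.0628, limma) and within replicates 1 and 3 (0.133, limma).

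The same list holds genes that regulate the synthases. Ddah1, which degrades the methylated arginine that inhibits them, rose from 19.6 ± 0.715 to 49.7 ± 4.64 FPKM (log2 change 1.30, adjusted p = 0.00012, limma). Cav1, the caveolin that holds the endothelial isoform inactive, rose from 31.8 ± 2.59 to 49.9 ± 4.22 FPKM (log2 change 0.64). Prmt1, which methylates arginine in proteins, rose from 117 ± 20.9 to 158 ± 11.2 FPKM (log2 change 0.45, adjusted p = 0.0461, limma), but the call held in only 8 of 17 alternatives. It was lost without Control replicate 1, TGF-β1 replicate 1, TGF-β1 replicate 2 or TGF-β1 replicate 3 (0.0716, 0.0942, 0.119 and 0.0923, limma), within replicates 1 and 3 (0.0861) and with scaling to protein-coding rows (0.181). No filter (0.0656), no mean-variance trend (0.0515) and scaling to the upper quartile (0.0766, all limma) ended it as well. Gch1, the first enzyme of tetrahydrobiopterin synthesis, was at 0.202 ± 0.138 and 0.482 ± 0.272 FPKM and was not called (adjusted p = 0.208, limma without the filter). Ddah2, of the same family as Ddah1, was at 58.8 ± 9.48 and 56.1 ± 24.0 FPKM and was not called (adjusted p = 0.729, limma). Nor were Hsp90aa1, Akt1, Nosip and Dynll1 (adjusted p 0.153, 0.206, 0.116 and 0.857, limma) or Nostrin (0.154, limma without the filter). 

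Of the other guanylate cyclases and the natriuretic peptide system, 3 of 10 genes with a row were tested and all 3 were called, where 48.1% of all tested rows were, with a median log2 change of -0.70. Npr2, the membrane guanylate cyclase for C-type natriuretic peptide, fell from 41.0, 45.5 and 48.6 FPKM to 23.5, 25.0 and 19.9 FPKM (log2 change -0.95, SE 0.11; adjusted p = 0.000938, limma). Npr3, the clearance receptor, fell from 35.3 ± 3.07 to 21.3 ± 1.16 FPKM (log2 change -0.70). Nppb, the B-type peptide, rose from 2.30, 0.928 and 1.12 FPKM to 3.44, 6.65 and 6.65 FPKM (log2 change 1.42, SE 0.30; adjusted p = 0.00885, limma), with an adjusted p of 0.0823 (limma) in replicates 1 and 3 alone.

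Below the filter, Gucy1b2, a second beta subunit of soluble guanylate cyclase, was at 0.0388, 0.116 and 0 FPKM in Control and at 1.13, 2.75 and 1.11 FPKM with TGF-β1, without overlap of the groups. The approximate fragments were 1, 3 and 0 against 31, 70 and 30, a ratio of 33.8 (exact 95% interval 12.9 to 126, counting error only). The log2 change was 1.29 (SE 0.24; adjusted p = 0.00946, limma without the filter). Adjusted p was 0.0509 without Control replicate 1 and 0.0513 without Control replicate 3, and 13 of 15 alternatives kept the call. Gucy1a2, the other alpha subunit, was at 0.325 ± 0.0860 and 0.552 ± 0.248 FPKM and was not called (adjusted p = 0.258, limma without the filter). Nppa, the atrial peptide, went from 0.318 ± 0.0765 to 0.0456 ± 0.0790 FPKM (adjusted p = 0.0191, limma without the filter) and lost its call without Control replicate 2, TGF-β1 replicate 2 or TGF-β1 replicate 3 (0.0554, 0.0648 and 0.0697, limma) and within replicates 1 and 3 (0.135, limma). Gucy1b2 and Nppa were named after their values were seen.

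Of the cGMP kinases and targets, 6 of 11 genes were tested, 2 were higher and 2 lower, and the median log2 change was 0.0061. The called share was 66.7%, beside 48.1% of all tested rows. Prkg2, the type II cGMP-dependent kinase, was measured at 2.93, 3.26 and 2.42 FPKM in Control and at 26.0, 28.0 and 25.7 FPKM with TGF-β1, a 9.26-fold difference of the means (log2 change 2.84, SE 0.11; adjusted p = 1.47e-05, limma). It was thus the more abundant of the 2 cGMP-dependent kinases in every library. Vasp, an actin regulator and kinase substrate, rose from 33.8 ± 3.90 to 65.0 ± 7.52 FPKM (log2 change 0.92). The cyclic nucleotide exporters Abcc5 and Abcc4 fell from 38.3 ± 6.24 to 17.0 ± 2.54 FPKM (log2 change -1.12) and from 12.5 ± 0.620 to 6.10 ± 0.270 FPKM (log2 change -0.92).

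**Figure D4:**
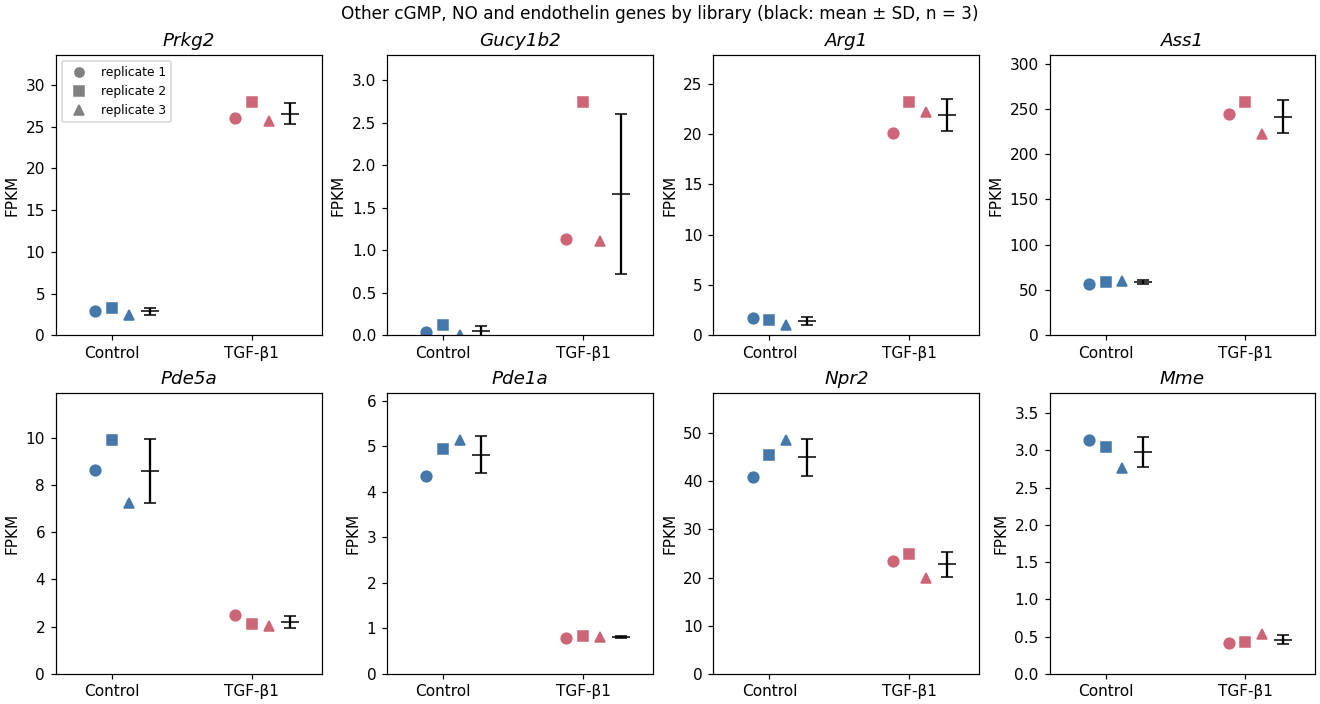
FPKM (vertical axes, linear from 0) of 8 further genes of the pathways in each Control and TGF-β1 library, with symbols for the replicate number and black bars for the mean ± SD (n = 3). Prkg2, Gucy1b2, Arg1 and Ass1 are higher in all TGF-β1 libraries, and Pde5a, Pde1a, Npr2 and Mme are lower, with TGF-β1 replicate 2 the highest library for Gucy1b2 at 2.75.

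Of the phosphodiesterase genes, 5 of 13 genes with a row were tested, 0 were higher and 2 lower, with a median log2 change of -0.24 (limma). The called share was 40.0%, beside 48.1% of all tested rows. The remaining 3, Pde3b, Pde6d and Pde10a, had log2 changes of -0.24, -0.076 and -0.096 at adjusted p of 0.104, 0.673 and 0.692 (limma). Pde6d encodes a prenyl-binding subunit without catalytic activity of its own. Pde5a, the cGMP-specific enzyme, fell from 8.65, 9.90 and 7.22 FPKM to 2.50, 2.10 and 2.02 FPKM (log2 change -1.57, SE 0.13; adjusted p = 0.000247, limma). Pde1a, the calcium-dependent enzyme, fell from 4.36, 4.95 and 5.14 FPKM to 0.794, 0.838 and 0.801 FPKM (log2 change -1.68, SE 0.11; adjusted p = 8.3e-05, limma). Neither gene overlapped between the groups. Below the filter, Pde1b, of the same calcium-dependent family, was at 0, 0.139 and 0 FPKM in Control and at 0.699, 0.492 and 0.939 FPKM with TGF-β1 (log2 change 0.70, adjusted p = 0.00592, limma without the filter), and it was named after its values were seen.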

How the data were processed

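The 3 Control and 3 TGF-β1 RNA-Seq libraries were grouped by their labels. According to the methods, the authors discarded reads of low quality, aligned the others to mm9 by TopHat, and obtained FPKM from Cufflinks (the submitters' processing notes name TopHat2 2.0.11, the methods another version). The deposited values are FPKM, and no scaling of one library to another is stated. An exact 0 can be a failed estimate, so such genes are called listed at 0.

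The authors' count test was replaced by limma 3.58.1 in R 4.3.3 (lmFit, eBayes with a mean-variance trend, two-sided, Benjamini-Hochberg over all tested rows), since the values are FPKM and not counts. It was run on log2(FPKM + 1) for rows with a mean of at least 1 FPKM, and without the filter for rows below it. An adjusted p under 0.05 was called changed. The script was tested on simulated data. Fragments were recovered from FPKM steps with an assumed fragment length of 200 nt, and intervals are exact 95% intervals. Gene positions are those of the mm9 annotation, 1-based. Python 3.11.15, pandas 2.3.3 and scipy 1.17.1 were used.

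The members and lists were chosen with earlier results of these data known. A branch of the receptor effectors is not reported here, and its genes were taken out of the lists and counts for that reason, not for their values. Named genes are all members, up to 3 called genes per list and direction with the largest log2 change, list genes acting directly on a member, and the 3 rows most like the most changed members. Alternatives were the pseudocount, filter, trend, scaling, threshold, replicate block, replicate 2 as a batch term, replicates 1 and 3 alone and leaving out each library. The ratios Ednra to Ednrb and Gucy1a3 to Gucy1b3 and the sum of the latter pair were not run, because Ednrb was listed at 0 in 5 libraries and Gucy1a3 was not analysed here. Whether the numbers pair the libraries was not settled. Correlations of same-numbered deviations were 0.0921, 0.2317 and 0.0853, and not all exceeded 0.1. Those of different-numbered libraries ran from -0.1939 to 0.1171. With 3 libraries per group this check cannot decide, so the main fit was unpaired and the replicate block was an alternative.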

Additional observations from a re-analysis of the deposited data

How the results depend on the processing

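The 2 called members, Ednra and Gucy1b3, kept their direction and their call under all 15 alternatives that could change them (both lie below the filter, so a change of filter leaves their fit as it is), and the other 6 members were called under none. For Nos1 the log2 change of -0.0055 turned to 0.0095 within replicates 1 and 3 and to 0.01 without Control replicate 2, the library with 3 of its steps, and over leaving out each library it ranged from -0.018 to 0.01. At an adjusted p under 0.01, 3672 rows were called in place of 5721. With the replicate block, 5391 rows and 2 members were called; Control replicate 1 deviated most with TGF-β1 replicate 3 (0.1171), so not every library matched its own number best. The block ended the calls of Asl (0.0676), Rgs2 (0.0882), Rgs5 (0.0651) and Nppa (0.0583; adjusted p, limma). In place of 22 called genes of the pathway lists, 26 were called with no filter, 28 when scaled to protein-coding rows and 17 within replicates 1 and 3. Called rows of the whole table moved too, from 5721 to 6026, 5942 and 4195 in the same order. With no filter the 26 were of 78 genes with a row, where 30.5% of all rows were called. Guanylate cyclase and natriuretic peptide genes went from 3 called of 3 tested to 5 of 10 with a row without the filter. Called genes of the pathway lists kept their call in 408 combinations of gene and alternative, and lost it in 53 without turning direction. Besides the 22 genes, these combinations cover Rgs2, Rgs4, Rgs5, Gucy1b2, Nppa and Pde1b, which lie below the filter and were called only without it. Mme, Plcb1 and Pde1a do not reach a mean of 3 FPKM and are not counted under that filter. Depth limits Ednrb, Nos1, Nos3 and Prkg1, which rest on few or no fragments.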
